A study of Mus musculus with 2 samples.

Results

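The 10 genes described here code for the muscle acetylcholine receptor and for the proteins that gather it at the neuromuscular junction. They were chosen by symbol from a fixed list, and all 10 had a target among the 23930 targets measured. The receptor subunits of muscle are Chrna1, Chrnb1, Chrnd, Chrng and Chrne, and the organizers are Agrn, Lrp4, Musk, Dok7 and Rapsn. Expression was measured in 2 libraries of cranial suture tissue (coronal, sagittal and lambdoid) from wildtype mouse pups at postnatal day 3, with a panel that amplifies a short stretch of each gene. The libraries, called library 1 and library 2 after the number in their titles, form 1 group with 1 batch number, and the labels name neither a strain nor whether the pups or pools were separate, so the spread between them may be technical. The cell type named in the labels is suture stem cells, but the extraction describes whole tissue with no sort.

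The neuromuscular junction is the synapse at which a motor axon releases acetylcholine onto a muscle fibre. Agrin from the nerve binds Lrp4 on the fibre, Lrp4 activates the receptor kinase MuSK, the adaptor Dok7 sustains that activity, and the scaffold protein rapsyn clusters the receptors. In the receptor of fetal muscle the gamma subunit (Chrng) stands beside the alpha, beta and delta subunits, and in mouse muscle the epsilon subunit (Chrne) replaces it during the first weeks after birth. Both Agrn and Lrp4 also work outside muscle. Agrin is a proteoglycan of many basement membranes, and Lrp4 is expressed in bone-forming cells, where it binds the Wnt inhibitor sclerostin.

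Reads could be recovered from the deposited CPM values (a target's reads scaled to the library total), and they summed to 5663344 in library 1 and 15802610 in library 2. With 0 reads, levels of up to 0.530 CPM (library 1) and 0.190 CPM (library 2) are allowed, from 3 reads. The labels record no molecular identifiers, so these limits and every interval and test given here cover counting error only. Both libraries held the 8 suture mesenchyme markers looked for at 1 CPM or more, and the 9 osteoblast markers at 10 CPM or more. By the exact binomial test given below, 5 of the suture markers were higher in library 2, such as Gli1 (32.0 and 64.4 CPM). Of the others, 1 was higher in library 1, Twist1 (124 and 72.8 CPM), and 2 were not called. All 15 skeletal muscle fibre genes measured also exceeded 10 CPM in both libraries, so RNA of muscle fibres was part of both libraries. Summed, they reached 53082 CPM in library 1 against 17094 CPM in library 2. Library 2 held more reads of sensory olfactory neuron genes, which summed to 94.8 CPM in library 1 but 501 CPM in library 2, and of Schwann cell genes, at 608 and 1532 CPM. The part of these tissues in the results below was not tested. In bulk tissue, fewer cells of a type and less RNA per cell cannot be told apart.

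The promoters of the gamma and epsilon genes are shown because the comparison of fetal and adult receptor turns on them, and those of Chrna1 and Musk because their reads differed most between the libraries along with Chrne. Each is the stretch of 250 bases before a RefSeq start site on GRCm38.p6, written from 5′ to 3′ on the gene's strand. Capitals mark matches to the E-box (CANNTG), the motif bound by myogenic factors such as MyoD and myogenin, and to the N-box (CCGGAA, on either strand), a motif known from synapse-specific genes and bound by ETS factors.
Chrng: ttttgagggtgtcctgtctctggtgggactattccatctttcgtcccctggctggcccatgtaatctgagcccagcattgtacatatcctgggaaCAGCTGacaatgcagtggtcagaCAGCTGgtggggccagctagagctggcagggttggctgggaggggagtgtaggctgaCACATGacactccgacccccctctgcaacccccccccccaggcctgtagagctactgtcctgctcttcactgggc
Chrne: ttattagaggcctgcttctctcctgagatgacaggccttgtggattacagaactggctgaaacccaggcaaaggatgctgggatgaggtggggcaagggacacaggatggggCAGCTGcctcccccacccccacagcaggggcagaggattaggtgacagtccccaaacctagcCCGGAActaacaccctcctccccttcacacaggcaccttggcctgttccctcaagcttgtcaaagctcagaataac
Chrna1: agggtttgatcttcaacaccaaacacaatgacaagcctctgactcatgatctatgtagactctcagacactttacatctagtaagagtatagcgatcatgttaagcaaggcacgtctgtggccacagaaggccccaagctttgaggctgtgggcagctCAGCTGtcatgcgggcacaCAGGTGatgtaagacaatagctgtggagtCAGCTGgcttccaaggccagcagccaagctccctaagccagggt
Musk: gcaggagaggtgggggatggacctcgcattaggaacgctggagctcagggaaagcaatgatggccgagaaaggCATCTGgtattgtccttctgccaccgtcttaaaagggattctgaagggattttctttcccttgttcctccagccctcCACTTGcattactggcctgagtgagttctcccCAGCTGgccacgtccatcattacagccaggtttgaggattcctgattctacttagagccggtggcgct
The Chrng window lies at chr1:87205561-87205810 on the plus strand, the Chrne window at chr11:70619195-70619444 on the minus strand, the Chrna1 window at chr2:73580339-73580588 on the minus strand and the Musk window at chr4:58285712-58285961 on the plus strand. GENCODE M21 starts the Chrng gene further upstream, at 87204657, so the RefSeq window of Chrng lies within the gene as annotated there. The Chrng window held 3 E-boxes, beginning 155, 132 and 75 bases before the start site, and no N-box. The Chrne window held 1 E-box, 138 bases before the start site, and 1 N-box, 76 bases before it. The windows of Chrna1 and Musk held 3 E-boxes each and no N-box. At least 3 E-boxes were found in 12.2% of 32851 windows of this length, at least 1 in 66.2%, and at least 1 N-box in 12.0%. The stricter form CAGCTG, which is also an E-box, occurred at 2 places in the windows of Chrng and Chrna1 and at 1 place in those of Chrne and Musk. At least 2 such places were found in 1.26% of all windows and at least 1 in 13.0%. Of the 10 genes, 7 had an entry in the promoter table. The window of Chrnb1 held 3 E-boxes, none of them CAGCTG, and Agrn and Dok7, with more than 1 start site each, held at most 1. No binding was measured, so these matches describe letters and not sites in use.

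Receptor subunits were read in both libraries, all at a higher CPM in library 1, though relative to the muscle fibre genes Chrnb1 lay slightly toward library 2 (-0.15 on the log2 scale, not called). Chrna1, the subunit that carries the main part of the acetylcholine binding site, stood at 62.5 CPM in library 1 and 8.92 CPM in library 2 (mean 35.7 ± 37.9, SD, n = 2). The exact 95% Poisson intervals, 56.2 to 69.4 and 7.51 to 10.5 CPM, were far apart. Chrnb1, the beta subunit, was at 60.6 and 22.4 CPM (mean 41.5 ± 27.0, SD, n = 2). Chrnd, the delta subunit, was at 27.9 and 6.83 CPM (mean 17.4 ± 14.9, SD, n = 2). Library 1 was the higher library for each of these 3 subunits, which the fetal and adult receptor share. Chrna1 lies on mm10 chromosome 2 from 73563215 to 73580338, Chrnb1 on chromosome 11 from 69784036 to 69795943, and Chrnd on chromosome 1 from 87190607 to 87200070. The place of the amplicons within the genes was not analysed here.

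The fetal subunit outnumbered the adult subunit in both libraries. Chrng stood at 24.0 CPM in library 1 and 7.91 CPM in library 2, from 136 and 125 reads (mean 16.0 ± 11.4, SD, n = 2). Chrne stood at 12.7 CPM in library 1 and 1.71 CPM in library 2, from 72 and 27 reads (mean 7.21 ± 7.78, SD, n = 2). Both genes were thus higher in library 1, and the adult subunit of library 2 was the second lowest value of that library among the 10 genes. In the annotation, Chrng lies on mm10 chromosome 1 from 87204657 to 87212694, with 4586 bases between it and Chrnd on the same strand, whereas Chrne lies on chromosome 11 from 70614883 to 70619216. Another gene, 4930544D05Rik, overlaps 1043 bases of Chrne on the opposite strand. Its own target gave 1.94 and 1.46 CPM, and whether the Chrne amplicon also reads it was not tested.

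The ratio of Chrng to Chrne reads was 1.89 in library 1 (exact 95% interval 1.41 to 2.55) and 4.63 in library 2 (3.04 to 7.30). Chrng thus gave 65.4% of the reads of the pair in library 1 (58.5% to 71.8%, exact Clopper-Pearson interval) and 82.2% in library 2 (75.2% to 88.0%). The ratio was 2.45 times as high in library 2 as in library 1, with a 95% interval from 1.48 to 4.06 (two-sided Fisher's exact test, p = 0.000494). The scaling of the libraries cancels in each ratio, and the efficiency of each amplicon, if equal in both libraries, cancels only in this comparison of ratios. Variation between libraries beyond counting error does not cancel, and the change rests on 27 Chrne reads in library 2. Chrng gave more reads than Chrne in both libraries, but this order of the pair depends on the efficiency of the amplicons. The test compares 2 libraries by their reads, and the mean log2 ratio over the libraries was 1.56 ± 0.91 (SD, n = 2). Of all subunit reads, Chrne gave 6.77% in library 1 (5.34% to 8.45%) and 3.58% in library 2 (2.37% to 5.16%), while Chrnd gave 14.9% and 14.3%. Chrna1 gave 33.3% in library 1 and 18.7% in library 2, and Chrnb1 32.3% and 46.9%. Within the receptor genes, the shares of Chrna1 and Chrne were thus lower in library 2 and that of Chrnb1 was higher. Chrng gave 12.8% in library 1 (10.8% to 15.0%) and 16.6% in library 2 (14.0% to 19.4%), and the intervals overlapped, as did those of Chrnd (12.8% to 17.1% and 11.9% to 17.0%).

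**Figure D1:**
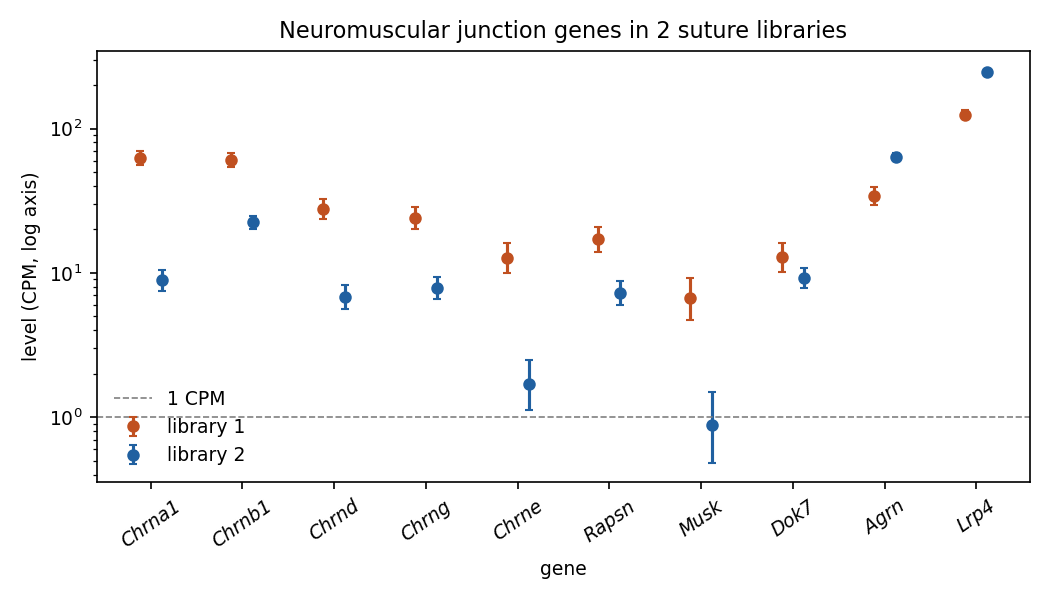
Level of each of the 10 genes in CPM on a log axis, by library, with bars for the exact 95% Poisson intervals of the reads. The receptor subunits, Rapsn, Musk and Dok7 lie higher in library 1, Agrn and Lrp4 lie higher in library 2, and Musk in library 2 is the value below 1 CPM, at 0.886 CPM.

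Among the organizers, Rapsn and Musk were higher in library 1 on the CPM scale, though relative to the muscle fibre genes Rapsn lay toward library 2 (-0.31 on the log2 scale, not called). Rapsn, which codes for the receptor-clustering scaffold rapsyn, was at 17.1 CPM in library 1 and 7.28 CPM in library 2 (mean 12.2 ± 6.97, SD, n = 2). Musk, the receptor kinase, was the lowest of the 10 genes in both libraries, at 6.71 and 0.886 CPM from 38 and 14 reads (mean 3.80 ± 4.12, SD, n = 2). Dok7, the cytoplasmic adaptor of MuSK, was at 12.9 and 9.24 CPM (mean 11.1 ± 2.58, SD, n = 2), and its Poisson intervals, 10.1 to 16.2 and 7.80 to 10.9 CPM, overlapped. The 3 genes were thus all read more in library 1 per library total, with the smallest difference for Dok7. Rapsn lies on mm10 chromosome 2 from 91035620 to 91045729, Musk on chromosome 4 from 58285960 to 58374303 and Dok7 on chromosome 5 from 35056766 to 35087839. A processed transcript, Gm13778, overlaps 1638 bases of Rapsn on the opposite strand, and the amplicon's place relative to it is not known here.

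RNA of Agrn and Lrp4 was higher in library 2. Lrp4 was the highest of the 10 genes in both libraries, at 125 CPM in library 1 and 245 CPM in library 2 (mean 185 ± 85.1, SD, n = 2). Agrn was at 34.3 CPM in library 1 and 63.5 CPM in library 2 (mean 48.9 ± 20.7, SD, n = 2). Both genes thus went the other way from the receptor subunits. Lrp4 exceeded the level of 94.9% of all targets in library 1 and of 98.0% in library 2, and for Musk these shares were 58.3% and 39.9%. In the annotation, Lrp4 lies on mm10 chromosome 2 from 91457511 to 91513779 and Agrn on chromosome 4 from 156165290 to 156197488. Agrin made by nerve carries additional exons that muscle and other cells skip, and a panel with 1 target per gene does not tell these forms apart.

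Ranked by CPM in library 1, the order was Lrp4, Chrna1, Chrnb1, Agrn, Chrnd, Chrng, Rapsn, Dok7, Chrne and Musk. Neighbours in this order whose ratio had an interval spanning 1 were Chrna1 and Chrnb1 (1.03, from 0.887 to 1.20), Agrn and Chrnd, Chrnd and Chrng, Rapsn and Dok7, and Dok7 and Chrne. In library 2 the order was Lrp4, Agrn, Chrnb1, Dok7, Chrna1, Chrng, Rapsn, Chrnd, Chrne and Musk. The 5 genes from Dok7 to Chrnd formed a run without a resolved neighbour, from 9.24 to 6.83 CPM, and Chrne and Musk were not resolved either (1.93, from 0.976 to 3.98). The ratio of Chrnd (6.83 CPM) to Chrne (1.71 CPM) had an interval from 2.60 to 6.35, which spans that of Lrp4 to Agrn (3.86, from 3.60 to 4.14). Such ratios compare reads of different amplicons, each with its own efficiency.

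The libraries were compared target by target by an exact binomial test (two-sided) of the recovered reads, with Benjamini-Hochberg adjustment across all 23930 targets. Of the 10 genes, the test called 7 toward library 1 and 2 toward library 2, and Dok7 missed the threshold. The test called 37.0% of all targets, 17.1% as higher in library 1 and 20.0% as higher in library 2. Among the 9192 targets at a mean of 10 CPM or more it called 69.5% (32.5% as higher in library 1 and 37.0% as higher in library 2), so a call alone says little about these genes, and their size and direction are given instead. The median difference of the 10 genes was 1.44 on the log2(CPM + 1) scale, library 1 minus library 2, beside -0.07 over the 14097 targets at a mean of 1 CPM or more.

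For the receptor subunits 5 of 5 were higher in library 1, with a median difference of 1.88 (relative to the muscle fibre genes Chrnb1 turned and Chrng was level, at 1.01-fold). Chrna1 was 7.01-fold higher there (adjusted p = 2.70e-95, exact binomial test), a difference larger than that of 98.9% of the targets at a mean of 10 CPM or more. Chrne was 7.44-fold higher (adjusted p = 1.44e-20), Chrnd 4.08-fold (2.59e-28), Chrng 3.04-fold (2.34e-17) and Chrnb1 2.70-fold (3.47e-36), each in the same exact test. The fold of the adult subunit was therefore larger than that of the fetal subunit, as the change of their ratio shows. Musk was 7.57-fold higher in library 1 (adjusted p = 2.59e-11, exact binomial test) and Rapsn 2.35-fold (1.17e-08). Dok7 was 1.40-fold higher in library 1, which missed the threshold (p = 0.0215, adjusted p = 0.0571, exact binomial test). Toward library 2, the exact binomial test gave 1.97-fold for Lrp4 (adjusted p = 6.22e-69) and 1.85-fold for Agrn (6.79e-16).

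Muscle fibre genes moved with the receptor genes. Of the 15 muscle genes measured, 14 were higher in library 1, none was higher in library 2, and Ryr1, the calcium release channel, was not called. Their median difference was 1.59, with Mylpf at 13300 CPM in library 1 and 5222 CPM in library 2, Acta1 at 10110 and 2583 CPM, and Myh8 at 6588 and 2188 CPM. Scaling library 1 down by the median muscle ratio, 3.01-fold, gave a split of 4 genes higher in library 1 and 3 higher in library 2, in place of 7 and 2. On that scale 1.01% of the targets at a mean of 10 CPM or more were called higher in library 1 and 96.1% higher in library 2. The 4 genes above the muscle median were Musk at 2.51-fold, Chrne at 2.47-fold, Chrna1 at 2.33-fold and Chrnd at 1.36-fold, while Chrng was at 1.01-fold and was not called (adjusted p = 1, exact binomial test). Chrnb1 (-0.15 on the log2 scale, adjusted p = 0.245 in the exact binomial test) and Rapsn (-0.31, adjusted p = 0.119) then lay on the side of library 2 without a call. Dok7 (-0.96), Agrn (-2.38) and Lrp4 (-2.54) were called higher in library 2 on that scale.

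**Figure D2:**
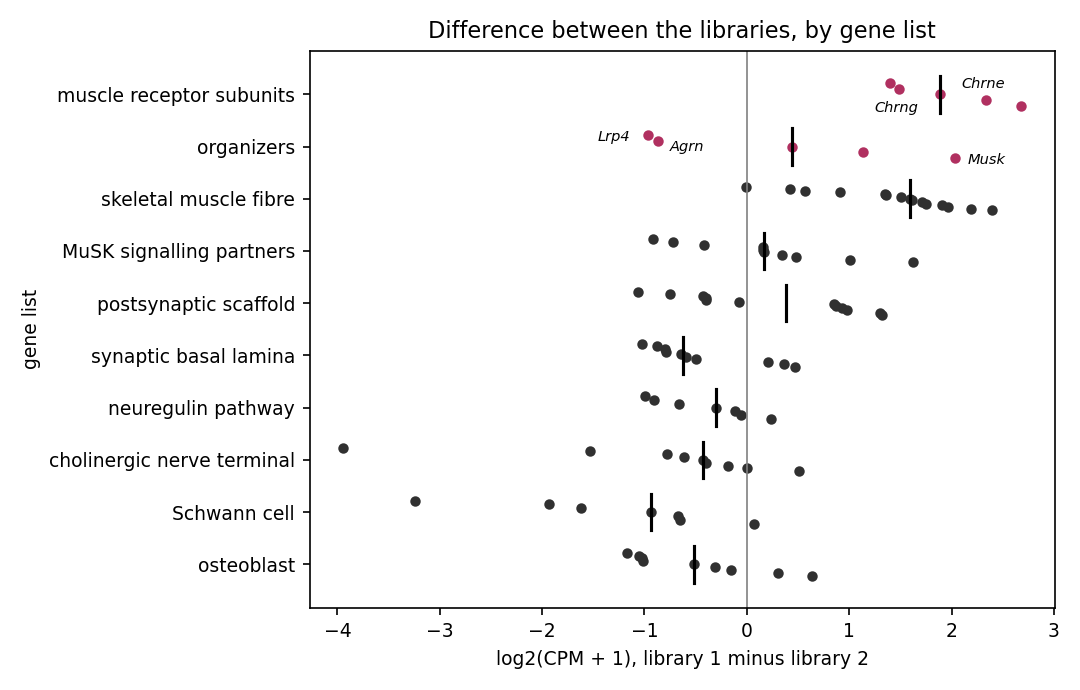
Difference between the libraries on the log2(CPM + 1) scale, library 1 minus library 2, for the genes of 10 lists, with a point per gene and a bar at the median of each list. The receptor subunits (median 1.88) lie in the range of the skeletal muscle fibre genes (median 1.59, highest 2.40), except Chrna1 at 2.68, while Lrp4 and Agrn lie near -0.97 and -0.87. Both values are within the ranges of the basal lamina, osteoblast, postsynaptic scaffold, neuregulin, nerve terminal and Schwann cell lists.

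Other muscle isoforms that change with maturation did not all go the way of the receptor pair. In the pair of myosin heavy chains Myh3 (embryonic) and Myh4 (adult fast), the early gene was at 159 CPM in library 1 and 34.0 CPM in library 2, and the mature gene at 29.1 and 76.6 CPM. Their ratio was 5.47 in library 1 and 0.444 in library 2. Myh8, the perinatal myosin, and Myh1, an adult fast myosin, had ratios of 7.22 and 2.19. The 2 myosin pairs thus had the lower early-to-mature ratio in library 2, where Chrng to Chrne had the higher one. For Tnnt2 and Tnnt3, the cardiac and fast troponin T genes, the ratios were 0.00256 and 0.00539, higher in library 2 as for the receptor pair. Actc1 and Acta1, the cardiac and skeletal actins, had ratios of 0.0887 and 0.0673, and Casq2 and Casq1, the calsequestrins, 0.183 and 0.181. Near-identical actin genes may share reads, so the actin ratio is uncertain. Of Myl4, the embryonic light chain paired with Myl1, 0 reads were found in library 1 and 3 in library 2, so no ratio is given. Tnnt2, Actc1 and Casq2 are also expressed in heart muscle.

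**Figure D3:**
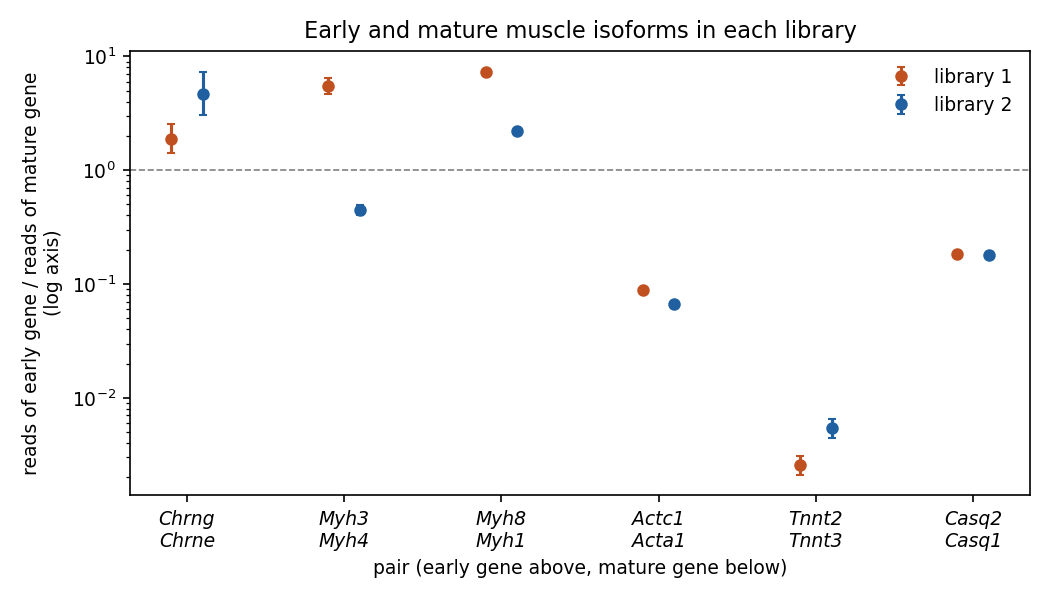
Reads of the early gene divided by reads of the mature gene in each library, on a log axis, for 6 pairs of muscle isoforms, with exact 95% intervals as bars. The ratio of Chrng to Chrne lies above 1 in both libraries and is higher in library 2 (4.63 against 1.89), whereas the ratio of Myh3 to Myh4 lies above 1 in library 1 (5.47) and below 1 in library 2 (0.444).

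Downstream of MuSK, all 10 signalling partners measured reached 1 CPM in both libraries. The exact binomial test placed 5 on the side of library 1 and 3 on that of library 2 and left 2 uncalled, with a median difference of 0.17. By the mean of the libraries the highest were the kinase gene Abl1 (234 and 168 CPM), the actin regulator gene Cttn (143 and 127 CPM) and the kinase gene Src (56.5 and 108 CPM). Pak1, a kinase of the actin cytoskeleton, differed most toward library 1, at 109 and 34.5 CPM. These genes are expressed in most tissues, so their reads do not speak of the junction in particular.

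The postsynaptic scaffold genes, 12 of 12 detected, split between the libraries. In the same test 6 lay higher in library 1, 4 lay higher in library 2 and 2 missed the threshold, with a median of 0.39. Plec (plectin) was at 334 and 563 CPM, Dag1 (dystroglycan) at 367 and 494 CPM, and Utrn (utrophin), which is concentrated at the junction, at 120 and 66.1 CPM. Dtna, the dystrobrevin of the junction, stood at 34.4 and 13.2 CPM, and Nes (nestin), at 128 and 51.3 CPM. Utrn, Dtna and Nes were thus on the side of the receptor genes, and Plec and Dag1 on that of Agrn and Lrp4.

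The synaptic basal lamina list, which holds the surroundings of agrin, was on the side of library 2. Of 10 genes, all detected, 7 were higher in library 2, 1 lay toward library 1 and 2 missed the threshold, and the median was -0.62. Hspg2 (perlecan), a basement membrane proteoglycan like agrin, was at 939 and 1729 CPM, Nid1 at 394 and 342 CPM and Lamb2, a laminin chain of the synaptic cleft, at 216 and 338 CPM. The genes not called were Ache, the acetylcholinesterase, at 11.3 and 8.54 CPM, and Colq, its collagen tail, at 4.77 and 3.16 CPM. Agrn, at -0.87 on the log2 scale, lay within the range of the list, from -1.02 to 0.47. It also lay within that of the Schwann cell genes, from -3.25 to 0.07.

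On the bone side of Lrp4, Lrp5 was at 162 and 268 CPM, Lrp6 at 125 and 106 CPM and Dkk1, a Wnt inhibitor, at 36.0 and 39.5 CPM. Of these 5 genes, which include the Lrp4 ligands Sost (28.8 and 22.8 CPM) and Sostdc1 (11.5 and 17.8 CPM), 2 were called toward library 1 and 2 toward library 2, and Dkk1 missed the threshold. Osteoblast genes were higher in library 2 for 7 of 9, with a median of -0.51, and their sums were 165482 CPM (library 1) and 168794 CPM (library 2). The difference of Lrp4, -0.97, lay within the range of the osteoblast genes, from -1.18 to 0.64, and within that of the Schwann cell genes, from -3.25 to 0.07. Which cells the Lrp4 reads came from was not tested.

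Nerve genes did not follow the receptor genes. Of 9 genes of cholinergic and motor nerve terminals, 4 were detected in both libraries, none was higher in library 1 and 5 were higher in library 2, with a median of -0.43. The defining cholinergic genes were near the limit of detection. Chat, which makes acetylcholine, gave 0 reads in library 1, which allows up to 0.530 CPM, and 5 reads (0.316 CPM) in library 2. Slc18a3, the vesicular transporter, was at 0.883 and 1.14 CPM, and Slc5a7, the choline transporter, at 1.06 and 0.443 CPM. Mnx1, a motor neuron factor, gave 0 reads in both libraries. Prph, an intermediate filament of peripheral neurons and the highest of the list by the mean of the libraries, was at 2.65 and 55.1 CPM, and Snap25 was at 6.89 and 11.1 CPM. Which cells the reads of these nerve genes came from was not tested, and RNA levels of the tissue do not count nerve terminals. As a floor, 14 genes of liver, testis, retina, pancreas and kidney had a median of 0.177 CPM in library 1 and 0.190 CPM in library 2, and the highest of them were Alb in library 1, at 5.83 CPM, and Apoa2 in library 2, at 1.14 CPM. The Musk value of library 2, 0.886 CPM, lay above the median and within the range of this list, and the Chrne value of library 2, 1.71 CPM, lay above all of its genes there.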

How the data were processed

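The deposited values are CPM per amplicon target, scaled by the authors to the total of each library, per the file headers. Per the labels' protocols, an Ion AmpliSeq gene expression panel was used, and per the submitters' processing notes the build was mm10. For aligner and counter, nothing is given in the sources used here. Divided by a fixed step (0.177 CPM in library 1, 0.0633 in library 2), 100% of the values came out whole to 0.01 of a read, so reads were recovered. This count test called 8863 targets. A date stood in place of 27 symbols, which were restored from the target names.

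Levels were compared as log2(CPM + 1), which understates changes near 1 CPM. Detection meant 1 CPM or more in both libraries. Tests were an exact binomial test with Benjamini-Hochberg adjustment at 0.05 and Fisher's exact test, in scipy 1.17.1. The binomial test was tried on simulated reads that held counting error only, so that trial does not cover other variation between libraries. With 1 group of 2 libraries, no conditions could be compared. Counting error understates the spread: chi-square between the libraries was 116 per degree of freedom over the 9192 targets at a mean of 10 CPM or more. Positions are from GENCODE M21 (GRCm38, the assembly of mm10) and promoters from RefSeq on GRCm38.p6. Named genes were all members, the 3 highest of each of 17 lists, the neuronal receptor subunits at 1 CPM or more in either library and 8 isoform pairs, not all of which are reported here. Others (Ryr1, Pak1, Dtna, Nes, Ache, Colq, Chat, Slc18a3, Slc5a7, Mnx1, Sost, Sostdc1, Nrg1, Erbb3, Trim63, Gmppb and the genes that overlap members) were chosen after their values were seen. The members and lists were chosen with earlier results of these data known. Of the listed genes, Rac1 and Tnnc2 were not analysed here. Alternatives were other scalings, pseudocounts, detection levels and filters, and leaving out a library.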

Additional observations from a re-analysis of the deposited data

How the results depend on the processing

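Scaling to the total without the 10 highest targets moved library 1 by 0.03 on the log2 scale and the median ratio of targets at a mean of 10 CPM or more by -0.05. The muscle scaling, by 1.59, changed most. On it the median difference of the 10 genes turned from 1.44 to -0.069, Chrnb1 to -0.15, Rapsn to -0.31 and Dok7 to -0.96, Chrng lost its call at 0.01, and 4 genes in place of 7 were higher in library 1. That scaling divides library 1 by the median ratio of muscle genes, and its values state each gene relative to them. Dok7 was called under the median ratio (0.49), and also with targets under a mean of 1 CPM left out. A call that also needed a fold of 2 in CPM + 1, met by 15.2% of targets at a mean of 10 CPM or more, left 0 genes higher in library 2, since Lrp4 and Agrn differed 1.97-fold and 1.85-fold. At 10 CPM in both libraries, 3 of 10 genes counted as detected, in place of 9. Of all targets, 55.0% reached 1 CPM in both libraries and 38.4% had a mean of 10 CPM or more. Leaving out a library gave 9 to 10 detected genes and a log2 ratio of Chrng to Chrne from 0.92 to 2.21, both toward Chrng, so the size of that ratio rests on the library taken. Without 1 library no comparison between libraries could be made. With pseudocounts of 1 and 5 CPM the mean log2 ratio was 1.29 and 0.83. No paired analysis was possible because the samples form 1 group. Depth limits Musk and Chrne most, which rest on 14 and 27 reads in library 2.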

Other observations

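Of 11 neuronal acetylcholine receptor subunit genes, 6 were detected in both libraries, 2 were called toward library 1 in the exact binomial test and none toward library 2, and 9 missed the threshold. Chrna4 was at 7.06 and 9.998 CPM (library 1 and library 2), Chrna7 at 6.89 and 4.18 CPM, Chrna9, known from hair cells of the inner ear, at 7.42 and 2.22 CPM, and Chrnb2 at 3.71 and 4.87 CPM. Chrna3 was at 1.77 and 1.46 CPM, Chrnb4 at 1.06 and 1.52 CPM and Chrna6 at 0.706 and 2.22 CPM. The calls were for Chrna7, at 1.65-fold (adjusted p = 0.0413), and Chrna9, at 3.35-fold (adjusted p = 1.02e-06), both in the exact test and both toward library 1. Their summed level, 29.0 and 27.3 CPM, was below that of the muscle subunits in both libraries, 188 and 47.8 CPM, though Chrna4 exceeded the muscle subunits other than Chrnb1 in library 2 and the amplicons differ in efficiency.

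The neuregulin pathway, which acts on junctional transcription and on Schwann cells, had 7 of 7 genes detected, 3 higher in library 2, none in library 1 and 4 not called, with a median difference of -0.30 on the log2 scale, library 1 minus library 2. By the mean of the libraries its highest genes were Etv5 (58.3 and 72.1 CPM), an ETS factor, the receptor gene Erbb2 (41.0 and 82.4 CPM) and Egr3 (24.9 and 25.9 CPM). Erbb3, the neuregulin receptor of Schwann cells, was at 6.004 and 12.2 CPM and Nrg1 at 1.94 and 3.67 CPM. Schwann cell genes were higher in library 2 for 6 of 7, among them Mbp (68.9 and 213 CPM), while Pmp22 (410 and 391 CPM) was not called.

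Genes that muscle regulates by activity or raises on denervation were mixed, with 2 of 10 called toward library 1, 5 toward library 2 and 3 uncalled (median -0.26). Myog, the myogenic factor that acts on receptor subunit promoters, was at 101 and 37.0 CPM, and Trim63, a muscle ubiquitin ligase, at 29.5 and 11.3 CPM. Both were on the side of the receptor genes, whereas Ncam1 (114 and 235 CPM) and Runx1 (113 and 172 CPM), which are also expressed outside muscle, were higher in library 2. Of 5 glycosylation genes known from congenital myasthenia, 3 were called toward library 2 and 1 toward library 1, and Alg14 missed the threshold (median -0.52). They were led by Gfpt1 (65.9 and 96.3 CPM), Alg2 (62.9 and 90.5 CPM) and Dpagt1 (23.7 and 45.6 CPM), and the gene higher in library 1 was Gmppb (5.30 and 1.96 CPM).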
